A study of Mus musculus with 32 samples.

Results

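The ion channel genes described here are 134 of the 17586 genes in the deposited table. They are the genes whose symbols begin with the stems of the potassium (Kcn), sodium (Scn), calcium (Cacna, Cacnb, Cacng), pacemaker (Hcn), chloride (Clcn) and transient receptor potential (Trpa, Trpc, Trpm, Trpv) channels. The symbols alone decided membership, though the group was chosen with earlier results of these data known. All 134 entered every test because no filter on low values was applied. They were sorted into 18 families. The voltage-gated potassium alpha subunits (Kv), with 34 genes, were the largest, followed by 13 inward rectifiers (Kir), 10 potassium channel genes gated by calcium or sodium, 10 voltage-gated calcium alpha subunits and 10 voltage-gated sodium alpha subunits. Of the rest, 3 carry a channel stem but encode no channel subunit: the noncoding RNA Kcnq1ot1, the regulator Kcnrg and the partner protein Trpc4ap.

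RNA was sequenced from 4 populations sorted from mouse brain, with 8 libraries in each. Normal microglia came from brains with neither graft nor tumour, 4 libraries from C57BL/6J mice (WT) and 4 from Pep3 mice, which carry the CD45.1 allele. The 3 tumour populations were microglia, macrophages labelled differentiated and macrophages labelled undifferentiated. They were sorted from chimeras that bore a glioma grown from GL-261 cells, a mouse glioma line syngeneic with the host and implanted in the brain. In 4 libraries of each tumour population Pep3 donor cells had been grafted into WT recipients, and in the other 4 WT donor cells into Pep3 recipients. The labels assign normal microglia to 2 experiments, 1 for each strain, and the tumour populations to the other 2, so experiment and graft cannot be told apart from the tumour when tumour microglia are compared with normal microglia. The labels do not say that each library is another mouse. The p-values therefore speak only of library-to-library spread, which may be technical.

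The deposited values are scores without a stated unit, from -6.50 to 6.92, centred on 0 for each gene over all 32 libraries and again within each recipient strain. A score says where a library lies against the others for that gene. It gives no level, so genes cannot be ranked by expression, no fold change can be given, and the sequencing depth is unknown. In 11 independent combinations of libraries the table carries no variation for any gene, and 9 libraries kept under 50% of their own direction. They are numbers 1, 10, 18 and 26 of normal microglia, 27 of tumour microglia, 28 and 31 of the differentiated and 8 and 29 of the undifferentiated macrophages. Differences between populations were fitted with limma over all 17586 genes and all 32 libraries with these 11 combinations as terms. Each is averaged over recipients and given on the deposited scale with its standard error (SE), and a gene was called at a Benjamini-Hochberg adjusted p under 0.05. In bulk libraries a larger share of cells of 1 type and more RNA per cell cannot be told apart. All 10 listed microglial markers, Tmem119, P2ry12 and Sall1 among them, were lower in both macrophage populations than in tumour microglia. All 10 listed markers of monocyte-derived macrophages, Ccr2 and Itga4 among them, were higher. The lists were chosen with earlier results of these data known, so this is no independent check of identity. With the olfactory centring described below, 6 macrophage markers stayed called higher in differentiated and 7 in undifferentiated macrophages (background 3.59% and 2.69%). All 10 microglial markers stayed lower in both (background 40.3% and 37.5%).

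Ion channels set the membrane potential and let calcium enter the cell. In macrophages and microglia, which do not fire action potentials, potassium channels hold the membrane negative and so keep up the drive for calcium entry, leak channels of the Kcnk family set the resting potential and the efflux that precedes inflammasome activation, TRP channels carry calcium and magnesium, and CLC exchangers act in endosomes and lysosomes. Voltage-gated sodium channels and most Kv channels are known chiefly from neurons and muscle.

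Channel genes lay higher in both macrophage populations of the tumour than in tumour microglia. In differentiated macrophages 101 of the 134 rose and 6 fell, against a background of 37% of all genes called higher and 6.35% called lower. In undifferentiated macrophages 95 rose and 5 fell, against 36.7% and 5.19%. Both comparisons use the same tumour microglia libraries and are therefore not separate evidence. The median difference of the 134 genes was 1.70 in differentiated and 1.56 in undifferentiated macrophages, and that of all genes was 0.65 and 0.71. The mean channel score of a library lay between -1.48 and -0.11 (median -0.71) in tumour microglia, between 0.26 and 1.00 (median 0.57) in differentiated and between 0.15 and 0.97 (median 0.42) in undifferentiated macrophages, and was between -0.85 and 0.16 (median -0.27) in normal microglia. No macrophage library of either kind lay as low as the highest tumour microglia library.

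A shift of like size was measured in genes known chiefly from sensory epithelia. The 779 olfactory, vomeronasal and trace amine receptor genes of the table, a group chosen after its values were seen, had a median difference of 1.48 in differentiated macrophages and 1.57 in undifferentiated macrophages, with 552 and 553 called higher and 0 called lower. Of 6 measured neuronal markers 5 rose in each comparison, and their mean score per library was between -1.78 and 0.06 in tumour microglia, between -0.39 and 0.87 in differentiated and between -0.05 and 0.84 in undifferentiated macrophages. Of 6 astrocyte markers 5 rose and 1 fell in each, of 6 oligodendrocyte lineage markers 3 rose, and of 4 glioma cell markers 3 rose. Of the endothelial and pericyte markers 5 of 6 rose in differentiated and 4 of 6 in undifferentiated macrophages, of the dendritic cell markers 3 and 2 of 4, and of the B cell markers 2 of 3 in each, with 1 lower in undifferentiated macrophages. The 1 T and NK cell marker measured, of 7 listed, rose in both, and the 1 neutrophil marker measured, of 6 listed, in differentiated macrophages. Markers missing from the table also left 6 of 8 neuronal, 6 of 7 oligodendrocyte lineage, 6 of 7 endothelial and pericyte, 4 of 7 glioma, 4 of 7 dendritic cell and 3 of 5 B cell markers. The part of these other cells and of the common shift in the channel calls was not tested. When the median score of the olfactory group was subtracted from each library, an alternative chosen after seeing the data, every difference moved by -1.47 for differentiated and -1.52 for undifferentiated macrophages. With that centring no neuronal, endothelial and pericyte, dendritic cell, glioma, T and NK cell or neutrophil marker was called in either comparison. Of the astrocyte markers 1 was then higher in differentiated macrophages and 1 lower in each comparison. In differentiated macrophages 1 B cell and 2 oligodendrocyte lineage markers were lower, and in undifferentiated macrophages 1 and 1. Of the channel genes 14 were then called higher and 18 lower in differentiated macrophages (background 3.59% and 40.3%), and 13 higher and 19 lower in undifferentiated macrophages (background 2.69% and 37.5%). With the median of all genes subtracted instead, 70 were called higher and 14 lower in differentiated (background 19.8% and 19.2%) and 54 higher and 11 lower in undifferentiated macrophages (background 16.7% and 16.3%).

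**Figure D1:**
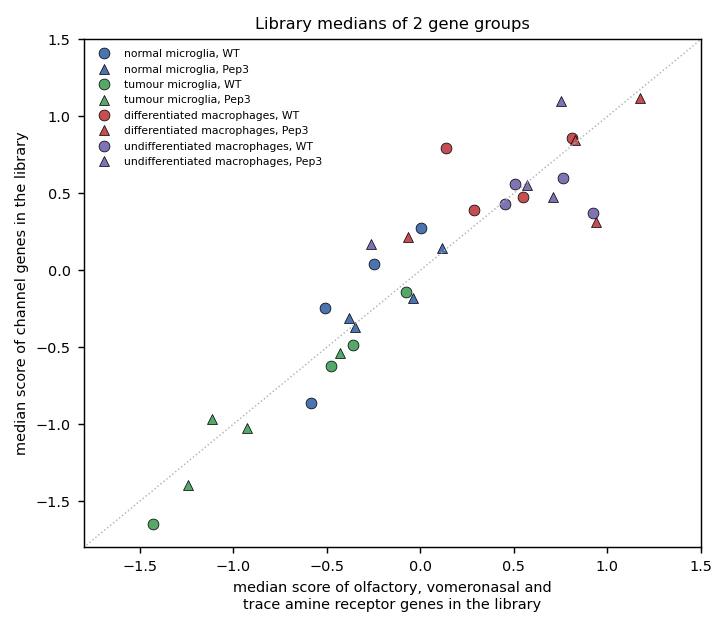
Median score of the 134 channel genes (vertical axis, deposited scale) against the median score of 779 olfactory, vomeronasal and trace amine receptor genes (horizontal axis, deposited scale), 1 point per library, circles for WT and triangles for Pep3 recipients, with the line of equality dotted. Tumour microglia lie towards the lower left and both macrophage populations towards the upper right, with channel medians from -1.65 to -0.14 in tumour microglia, 0.22 to 1.12 in differentiated and 0.17 to 1.10 in undifferentiated macrophages. Olfactory medians run from -1.43 to -0.08 in tumour microglia, -0.06 to 1.17 in differentiated and -0.27 to 0.92 in undifferentiated macrophages. Tumour microglia and undifferentiated macrophages therefore overlap on the horizontal axis.

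By family, the excitable-cell subunits moved almost as a block. Of the 34 Kv alpha subunits 32 rose in differentiated and 31 in undifferentiated macrophages and none fell, and all 10 sodium channel alpha subunits rose in both. Among them, Scn7a, which encodes an atypical sodium channel of the sodium-sensing kind, differed by 2.71 ± 0.32 (SE) in differentiated macrophages, Kcnv1, a modifier subunit of Kv channels, by 2.58 ± 0.32, and Kcnc2, a fast-closing Kv subunit, by 2.59 ± 0.36. Of the 13 inward rectifiers 10 and 9 rose, of the 10 calcium- or sodium-gated potassium genes 8 and 8 rose, and of the 6 TRPC genes 5 and 4 rose, none of them falling. Families with mixed directions included the leak potassium channels (4 of 9 rose and 1 fell in each), calcium alpha subunits (6 of 10 rose and 1 fell in each), TRPM (4 of 7 rose and 2 fell in differentiated, 3 rose and 1 fell in undifferentiated) and TRPV (2 of 4 rose and 1 fell in each). Of the 6 CLC genes 3 and 2 rose and none fell. Over all genes 37% and 36.7% were called higher and 6.35% and 5.19% lower. The leak channels (44.4% higher in each) and the CLC genes (50% and 33.3% higher) lay near that share, against 94.1% and 91.2% of the Kv alpha subunits. Under the olfactory centring the Kv count dropped to 4 of 34 in differentiated and 5 of 34 in undifferentiated macrophages, and the sodium alpha count to 4 of 10 in each. Of the inward rectifiers 0 were then higher and 1 lower in each comparison, of the leak channels 0 and 3, of the CLC genes 0 and 3, of TRPM 0 and 3 and of TRPV 0 and 2. The calcium- or sodium-gated group kept 2 higher and 0 lower in each, and TRPC had 1 higher and 0 lower in differentiated and 0 higher and 1 lower in undifferentiated macrophages. Over all genes 3.59% and 2.69% were higher and 40.3% and 37.5% lower with this centring. Beside that, 33.3% of the leak, 42.9% of the TRPM and 50% of the CLC and TRPV genes were lower in each comparison.

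**Figure D2:**
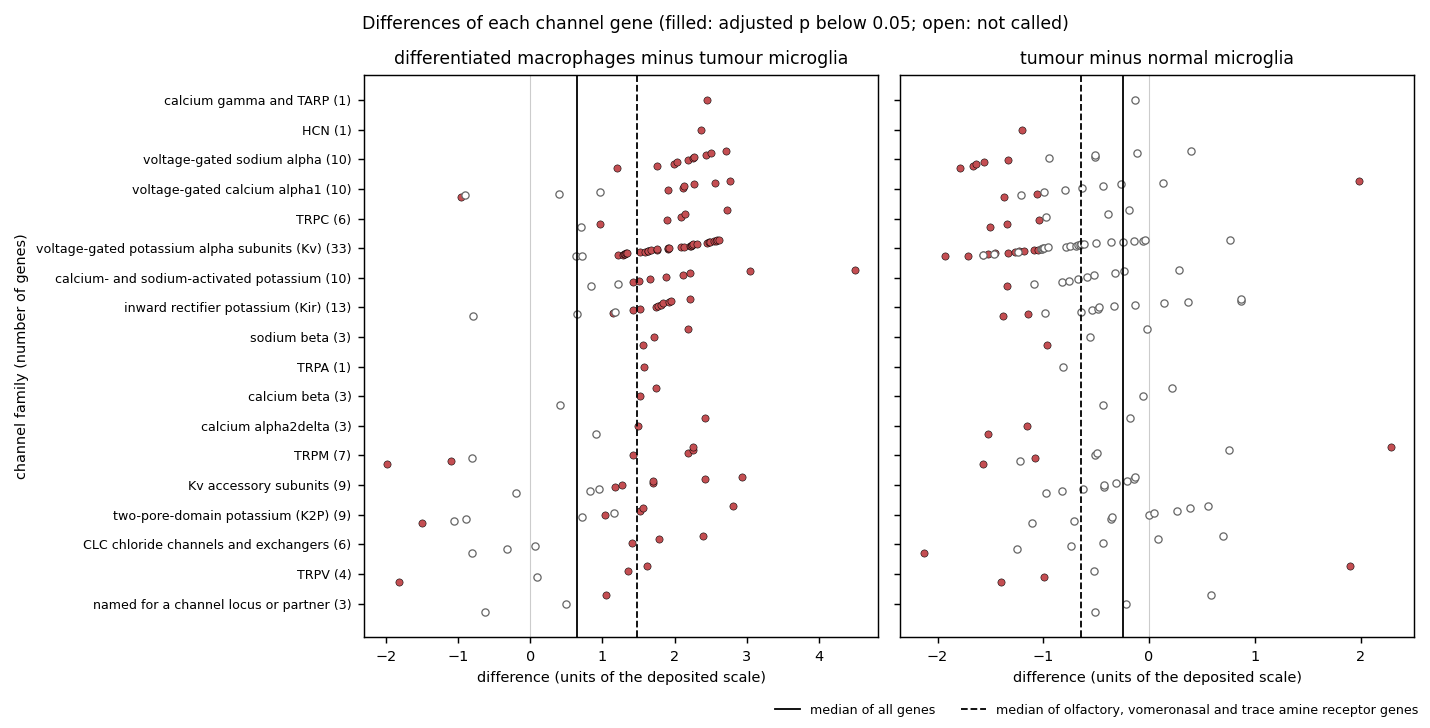
Fitted difference of each channel gene (horizontal axes, units of the deposited scale) by family (rows, with the number of genes), for differentiated macrophages minus tumour microglia on the left and tumour minus normal microglia on the right. Genes not reported here are left out of the rows, filled points were called and open points were not; vertical lines mark the median of all genes (solid) and of the olfactory, vomeronasal and trace amine receptor genes (dashed). On the left most families lie around or right of the dashed line, with Kcnn4 at 4.50 and a few genes below 0, and on the right most families lie left of 0 with Trpm7, Cacna1s and Trpv4 right of it.

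The largest difference of any channel gene was that of Kcnn4, the intermediate-conductance calcium-activated potassium channel of lymphocytes, macrophages and microglia. Its scores lay between -2.85 and -1.25 (median -2.17) in tumour microglia, between 1.15 and 3.18 (median 2.33) in differentiated macrophages and between 0.13 and 2.53 (median 1.07) in undifferentiated macrophages. Normal microglia lay between -2.67 and -0.41 (median -1.12). Every macrophage library was above every microglia library, whether from tumour or normal brain. Kcnn4 rose by 4.50 ± 0.42 (SE; limma, adjusted p = 6.3e-07) in differentiated and by 3.63 ± 0.44 (limma, adjusted p = 9.1e-06) in undifferentiated macrophages. It differed by 3.03 and 2.11 and was still called with the olfactory centring, and the call held without any 1 library in turn. Its relative Kcnn3, a small-conductance channel gated by calcium through calmodulin, lay between -3.43 and 0.12 (median -1.66) in tumour microglia, between 0.40 and 1.89 (median 1.39) in differentiated and between 0.61 and 2.37 (median 1.09) in undifferentiated macrophages. The ranges of macrophages and tumour microglia did not overlap, whereas normal microglia, between -3.43 and 0.62, reached into those of the macrophages. Kcnn3 rose by 3.05 ± 0.58 (limma, adjusted p = 0.00031) and by 3.12 ± 0.61 (limma, adjusted p = 0.00043), and by 1.58 and 1.60 with the olfactory centring, called in each case and without any 1 library. Of the other 8 genes of the group, Kcnn2, Kcnt1, Kcnt2, Kcnmb1 and Kcnmb4 rose in both comparisons. Kcnmb2 rose in differentiated macrophages (2.12 ± 0.53) and was not called in undifferentiated (0.64 ± 0.55), and Kcnn1 rose in undifferentiated (1.57 ± 0.43) and was not called in differentiated macrophages (0.83 ± 0.41). Kcnma1, the large-conductance channel, did not pass the test in either (1.21 ± 0.53 and 1.17 ± 0.55, limma adjusted p = 0.067 and 0.093).

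The 250 bases before the annotated start of the 2 genes with the largest differences in differentiated macrophages and of 2 that fell, Trpv4 and Trpm2, are shown because the members moved in both directions and their promoters can be compared. The sequences are from RefSeq on GRCm38.p6, whereas the authors' build was mm9, and are written 5' to 3' along the gene's strand. Capitals mark matches on either strand to CACGTG, the E-box bound by MITF and related factors, to AGGAAG, a form of the site of ETS factors such as PU.1, and to GGGCGG, the GC box of Sp factors.
Kcnn4, chr7:24370013-24370262, plus strand: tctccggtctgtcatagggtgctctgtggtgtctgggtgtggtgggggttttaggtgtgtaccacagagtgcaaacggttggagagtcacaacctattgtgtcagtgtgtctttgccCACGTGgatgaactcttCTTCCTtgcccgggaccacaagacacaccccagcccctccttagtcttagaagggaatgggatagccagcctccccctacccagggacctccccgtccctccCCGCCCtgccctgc
Kcnn3, chr3:89519914-89520163, plus strand: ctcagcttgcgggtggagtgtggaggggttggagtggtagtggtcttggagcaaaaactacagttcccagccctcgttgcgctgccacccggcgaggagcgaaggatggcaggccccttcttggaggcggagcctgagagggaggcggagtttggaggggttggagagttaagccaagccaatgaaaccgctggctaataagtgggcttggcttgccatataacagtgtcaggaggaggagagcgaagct
Trpv4, chr5:114658422-114658671, minus strand: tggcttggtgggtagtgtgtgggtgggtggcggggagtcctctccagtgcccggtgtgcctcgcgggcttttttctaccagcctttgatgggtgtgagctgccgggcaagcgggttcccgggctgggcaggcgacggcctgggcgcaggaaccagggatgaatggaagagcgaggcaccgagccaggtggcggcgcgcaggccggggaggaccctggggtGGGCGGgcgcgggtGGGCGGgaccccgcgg
Trpm2, chr10:77969873-77970122, minus strand: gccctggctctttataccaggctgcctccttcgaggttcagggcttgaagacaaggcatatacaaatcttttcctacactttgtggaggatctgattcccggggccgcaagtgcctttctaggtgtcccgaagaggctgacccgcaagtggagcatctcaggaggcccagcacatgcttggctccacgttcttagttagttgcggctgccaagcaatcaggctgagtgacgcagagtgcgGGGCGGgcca
The Kcnn4 promoter holds 1 match to each of the 3 motifs, the Kcnn3 promoter none, the Trpv4 promoter 2 GC boxes and the Trpm2 promoter 1. RefSeq entries matched 102 of the 134 genes, with 143 promoters. CACGTG was in 6.29% of these and in 6.02% of all 32851 promoters of the same length, AGGAAG in 35% and 29.5%, and GGGCGG in 37.8% and 32.7%. A match describes the letters in this window and not the binding of a factor.

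**Figure D3:**
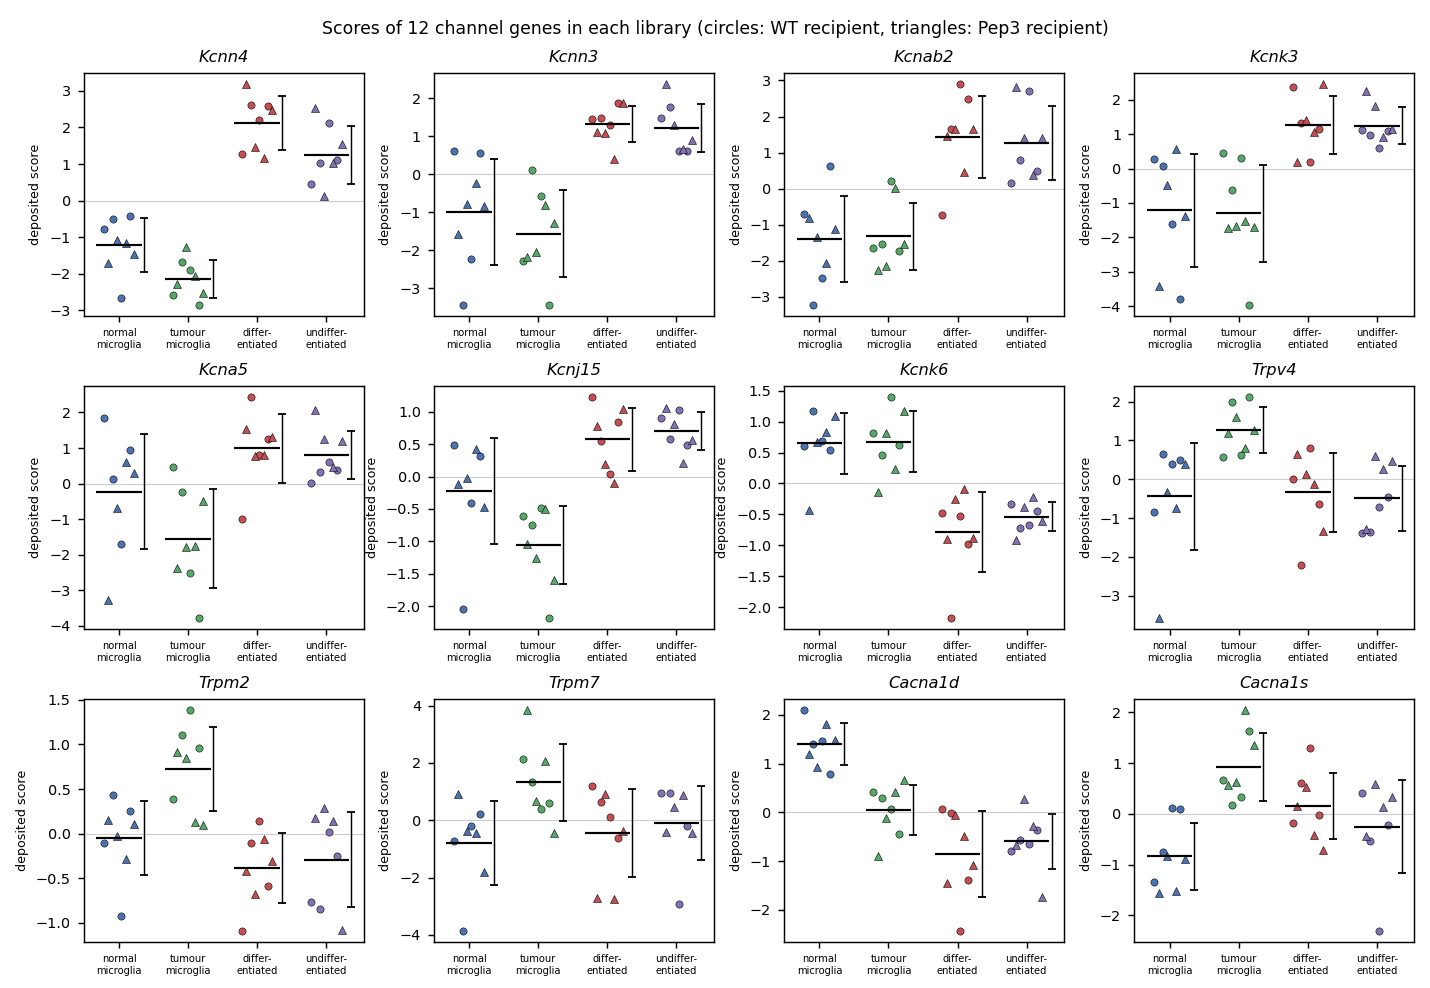
Deposited scores (vertical axes) of 12 channel genes in the 8 libraries of normal microglia, tumour microglia, differentiated macrophages and undifferentiated macrophages (horizontal axes); circles are WT and triangles Pep3 recipients, horizontal bars are means and vertical bars 1 SD on each side. Kcnn4 separates both macrophage populations from all microglia, Kcnk6, Trpv4 and Trpm2 are lower in macrophages than in tumour microglia, and Cacna1s is higher in tumour than in normal microglia.

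Other potassium channel genes rose as well. Kcnab2, a beta subunit that binds Kv channels in the cytoplasm, lay between -2.25 and 0.22 (median -1.58) in tumour microglia and between -0.74 and 2.89 (median 1.65) in differentiated and 0.15 and 2.80 (median 1.10) in undifferentiated macrophages. It rose by 2.94 ± 0.62 and 3.01 ± 0.65 (limma, adjusted p = 0.0007 and 0.00094), with overlapping ranges in both comparisons. Without differentiated macrophage library 28 the first value was 1.88 and was not called (limma, adjusted p = 0.089). Kcnk3, an acid-sensitive leak channel, lay between -3.96 and 0.46 (median -1.59) in tumour microglia, between 0.19 and 2.45 (median 1.24) in differentiated and between 0.59 and 2.26 (median 1.12) in undifferentiated macrophages. It rose by 2.81 ± 0.65 and 3.11 ± 0.68. Without tumour microglia library 27 the differences were 1.42 (limma, adjusted p = 0.079) and 1.83, and without differentiated macrophage library 28 the first was 4.45. Kcna5, a Kv channel of microglia, rose by 2.62 ± 0.65 and 2.78 ± 0.68. Its call was lost for differentiated macrophages without tumour microglia library 27 (1.303) or undifferentiated macrophage library 8 (1.69), and for undifferentiated macrophages without library 27 (1.57) or differentiated macrophage library 31 (2.04). Kcna2 rose by 2.47 ± 0.54 and 2.53 ± 0.56, values that became 1.27 and 1.43 without library 27 and, for undifferentiated macrophages, 1.31 without library 31, and were still called. Kcnj15, an inward rectifier, lay between -2.18 and -0.49 (median -0.90) in tumour microglia and above that range in every macrophage library, with lowest scores of -0.10 and 0.22, and rose by 1.75 ± 0.38 and 2.01 ± 0.40. With the olfactory centring Kcnab2, Kcnk3, Kcna5, Kcna2 and Kcnj15 kept a positive difference in both comparisons and none was called.

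Kcna3, the Kv channel best known from T cells and activated microglia, passed the test in undifferentiated macrophages alone. Its scores lay between -1.59 and 0.39 (median -0.73) in tumour microglia, between -1.20 and 0.79 (median 0.39) in differentiated and between 0.10 and 1.37 (median 0.54) in undifferentiated macrophages, with all these ranges overlapping. It rose by 1.52 ± 0.37 (limma, adjusted p = 0.0022) in undifferentiated macrophages and differed by 0.64 ± 0.35 (limma, adjusted p = 0.15) in differentiated macrophages. The difference between the macrophage populations was -0.88 ± 0.40, with an unadjusted limma p of 0.038 that did not survive adjustment. With the olfactory centring the undifferentiated value was -0.0024 and was not called.

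Among calcium-permeable channels, Cacna1e, an R-type calcium channel alpha subunit, rose by 2.77 ± 0.32 in differentiated and 2.62 ± 0.34 in undifferentiated macrophages. Its scores were between -2.59 and -0.21 (median -1.44) in tumour microglia, between 0.32 and 1.98 (median 1.05) in differentiated and between 0.39 and 1.93 (median 0.65) in undifferentiated macrophages, with no overlap. Trpc4, a receptor-operated cation channel, rose by 2.73 ± 0.40 and 2.27 ± 0.42, and Trpm3, a heat- and steroid-gated channel, by 2.26 ± 0.30 and 2.33 ± 0.31. Trpc6, a diacylglycerol-gated channel, rose by 1.90 ± 0.37 with no overlap in differentiated macrophages, where its scores started at 0.30 against a highest tumour microglia score of -0.11. In undifferentiated macrophages it rose by 1.31 ± 0.39 and was not called without library 27 (0.98) or library 31 (0.75). After the olfactory centring Cacna1e was called higher in both comparisons, Trpc4 in differentiated macrophages, and Trpm3 and Trpc6 in neither, and the Trpc6 difference of undifferentiated macrophages turned to -0.21.

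The subunits known from excitable cells can be followed gene by gene. Kcnh8, an ether-a-go-go-like Kv channel, lay between -3.32 and 0.73 (median -1.13) in tumour microglia, between -1.42 and 2.68 (median 1.03) in differentiated and between 0.33 and 2.11 (median 1.18) in undifferentiated macrophages, and rose by 2.49 ± 0.52 and 3.08 ± 0.54. Kcnh5 rose by 2.55 ± 0.38 and 2.56 ± 0.39 and Kcna1, a channel of axons, by 2.31 ± 0.39 and 2.58 ± 0.41. Kcnc1, a relative of Kcnc2, rose by 2.45 ± 0.49 and 2.11 ± 0.51, and the undifferentiated value without library 31 was 1.19 and not called. Kcnip4, a calcium-binding partner of Kv channels, rose by 2.42 ± 0.37 and 1.58 ± 0.39, the second being 0.92 and uncalled without library 31. For Scn1a, Scn2a1 and Scn3a, the sodium channels of brain neurons, the differences were 2.26 to 2.51 in differentiated and 2.25 to 2.49 in undifferentiated macrophages, and each call held without any 1 library. Scn9a, which is also described in microglia, lay between -2.07 and -0.29 (median -1.31) in tumour microglia and between 0.18 and 1.84 (median 0.76) in undifferentiated macrophages, with no overlap, and rose by 2.495 ± 0.35, against 2.00 ± 0.34 with overlap in differentiated macrophages. Under the olfactory centring Kcnh5, Scn1a and Scn3a were called higher in both comparisons, Kcnip4 and Scn2a1 in differentiated macrophages, Kcnh8, Kcna1 and Scn9a in undifferentiated macrophages, and Kcnc1 in neither.

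Chloride channels and exchangers were divided. Clcn2 lay between -2.05 and -0.65 in tumour microglia, between -0.85 and 3.13 in differentiated and between -0.98 and 1.06 in undifferentiated macrophages, and rose by 2.40 ± 0.50 and 1.45 ± 0.52. The undifferentiated call was lost without any 1 of 7 libraries. Clcn6, a late endosomal exchanger, rose by 1.78 ± 0.48 and 1.90 ± 0.50. Its values without library 27 were 0.65 and 0.86, that without undifferentiated macrophage library 8 was 1.33 and that for undifferentiated macrophages without library 31 was 1.05, none called, while the differentiated value without library 28 was 2.93. Clcn5, an endosomal exchanger, rose by 1.41 ± 0.43 in differentiated macrophages. It was uncalled without library 8 (1.28) or library 28 (0.84), 0.93 and called without library 20, and differed by 0.89 ± 0.45 in undifferentiated macrophages (limma, adjusted p = 0.12). Clcn2, Clcn5 and Clcn6 were not called in either comparison under the olfactory centring.

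A smaller group went the other way. Kcnk6, a leak potassium channel of the weakly rectifying kind, lay between -0.13 and 1.40 (median 0.71) in tumour microglia, between -2.17 and -0.09 (median -0.71) in differentiated and between -0.92 and -0.22 (median -0.53) in undifferentiated macrophages. Normal microglia lay between -0.43 and 1.17 (median 0.68), close to tumour microglia, and only the highest differentiated macrophage library reached the lowest tumour microglia library. Kcnk6 fell by 1.51 ± 0.36 (limma, adjusted p = 0.0018) and by 1.22 ± 0.37 (limma, adjusted p = 0.012), the second not called without library 31 (limma, adjusted p = 0.053). Trpv4, a calcium channel opened by osmotic swelling and warmth, lay between 0.58 and 2.12 (median 1.23) in tumour microglia, between -2.20 and 0.80 (median -0.06) in differentiated and between -1.40 and 0.60 (median -0.59) in undifferentiated macrophages. It fell by 1.82 ± 0.49 (limma, adjusted p = 0.0043) and by 1.81 ± 0.51 (limma, adjusted p = 0.0066), with ranges that overlapped at their ends. The call was lost for differentiated macrophages without library 8 (-1.29) or library 27 (-1.52) and for undifferentiated macrophages without library 27 (-1.53) or library 31 (-1.42). Without all 9 libraries that kept little of their direction, the differentiated value was 0.04 and no longer negative.

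Trpm2, a calcium channel opened by ADP-ribose under oxidative stress, lay between 0.09 and 1.39 (median 0.88) in tumour microglia, between -1.09 and 0.14 (median -0.36) in differentiated and between -1.08 and 0.28 (median -0.12) in undifferentiated macrophages. It fell by 1.10 ± 0.35 and by 1.00 ± 0.37 (limma, adjusted p = 0.015 and 0.032). The first call was lost without library 27 or library 28 (limma, adjusted p = 0.10 and 0.20) and the second without any 1 of 12 libraries, with differences from -1.05 to -0.81. Cacna1s, the L-type alpha subunit of skeletal muscle, fell by 0.97 ± 0.39 and 1.42 ± 0.41, a call that 20 single libraries ended in differentiated and 3 in undifferentiated macrophages. Trpm7, a channel fused to a kinase that carries magnesium, fell in differentiated macrophages by 1.98 ± 0.76 (limma, adjusted p = 0.038), a call that 13 single libraries ended, and differed by -1.69 ± 0.79 in undifferentiated macrophages (limma, adjusted p = 0.091). Kcnk6, Trpv4, Trpm2, Cacna1s and Trpm7 were called lower in both comparisons with the olfactory centring too.

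Several channel genes with a described place in microglia did not pass the test against tumour microglia as deposited. Kcnk13, the leak channel of microglial process surveillance, differed by -0.89 ± 0.57 and -0.30 ± 0.59, and its relative Kcnk12 by -1.06 ± 0.49 and -0.66 ± 0.51. Kcnj2, the main inward rectifier of myeloid cells, differed by -0.80 ± 0.38 and -0.43 ± 0.40. The endosomal and lysosomal exchangers Clcn3, Clcn4-2 and Clcn7 differed by -0.81 ± 0.38, -0.33 ± 0.36 and 0.06 ± 0.39 in differentiated macrophages. Trpv2, a channel of phagocytosis, differed by 0.09 ± 0.39 and -0.25 ± 0.41, Trpm4, a calcium-gated sodium conductance, by -0.81 ± 0.50 and -0.13 ± 0.53, and Cacna1d, an L-type channel, by -0.90 ± 0.44 and -0.70 ± 0.46. These 9 genes lay below the median difference of all genes, and all 9 were called lower in both comparisons with the olfactory centring (background 40.3% and 37.5%), when Clcn7 and Trpv2 turned to -1.41 and -1.38 in differentiated macrophages. Others of the list that did not pass in either comparison were Kcne3, an accessory Kv subunit (0.96 ± 0.51 and 1.26 ± 0.53), Kcnj10, an inward rectifier of glia (1.17 ± 0.49 and 0.65 ± 0.51), Cacna1a, the P/Q-type alpha subunit (0.40 ± 0.45 and 0.35 ± 0.47), and Kcnma1, and none of these 4 was called lower in differentiated macrophages with the olfactory centring. Of the 31 measured genes listed as known from microglia and macrophages, 12 rose and 5 fell in differentiated and 12 rose and 4 fell in undifferentiated macrophages, which is 38.7% higher in each beside a background of 37% and 36.7%, a share near the background, and 16.1% and 12.9% lower beside 6.35% and 5.19%. Under the olfactory centring 2 were higher and 14 lower, and 3 higher and 14 lower (background lower 40.3% and 37.5%). Kcnq1, Kcnd1 and Trpv1 of that list were not analysed here.

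**Figure D4:**
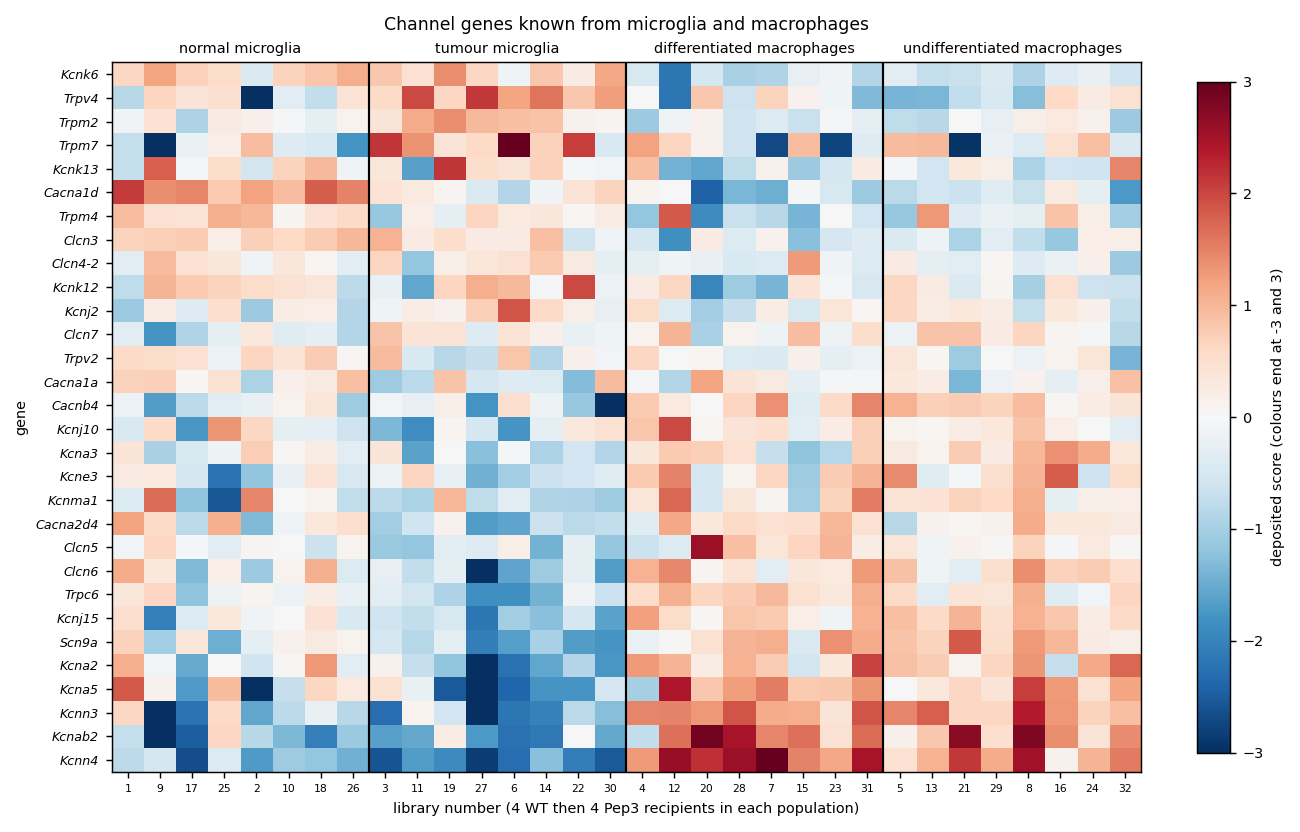
Deposited scores (colour, blue for low and red for high, ending at -3 and 3) of 30 channel genes listed as known from microglia and macrophages (rows) in 32 libraries (columns, by population, with 4 WT then 4 Pep3 recipients in each). Kcnk6, Trpv4 and Trpm2 at the top are mostly red in tumour microglia. In macrophages Kcnk6 is blue, and Trpv4 and Trpm2 are lower than in tumour microglia but not blue in every library. Kcnn4, Kcnab2, Kcnn3 and Kcna5 at the bottom are mostly blue in tumour microglia and red in macrophages.

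Differentiated and undifferentiated macrophages were not told apart by any channel gene. None of the 134 was called in either direction by limma, against 0% of all genes called higher and 0.0114%, which is 2 genes, called lower, and the median channel difference was 0.05. At an unadjusted limma p under 0.05 there were 3 of the 134 channel genes, not a larger share than the 491 of all 17586 genes. The 3 are named here after their values were seen: Kcnmb2, an accessory subunit of the large-conductance potassium channel (1.48), the muscle sodium channel Scn4a (1.02) and Kcna3 (-0.88). Kcnn4 differed by 0.88 ± 0.49, higher in differentiated macrophages and not called. A missed threshold does not show that the populations are alike.

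Between tumour and normal microglia 3 channel genes rose, 33 fell and 98 did not pass the test, against 4.66% of all genes called higher and 12% called lower. The median channel difference was -0.64, that of all genes -0.25 and that of the olfactory receptor group -0.64. By family, 11 of 34 Kv alpha subunits, 5 of 10 sodium alpha subunits and 3 of 6 TRPC genes fell, while none of the 9 leak potassium channels and none of the 9 Kv accessory subunits was called. Of the neuronal markers 2 of 6 fell and of the glioma markers 3 of 4. Their part in the result was not tested. Each of the 36 calls was lost without at least 1 single library: 35 were lost without normal microglia library 1, 28 without library 10, 26 without library 18, 25 without tumour microglia library 27 and 22 without normal microglia library 26, each a library that kept under 50% of its direction. With the olfactory centring 9 channel genes were called higher and 8 lower (background 14.6% and 2.58%), and with the median of all genes subtracted 5 higher and 21 lower (background 7.72% and 7.6%).

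The 3 genes that rose in tumour microglia were Cacna1s, Trpv4 and Trpm7. Cacna1s lay between -1.55 and 0.12 (median -0.85) in normal and between 0.17 and 2.05 (median 0.65) in tumour microglia, so that the lowest tumour library was just above the highest normal library, and rose by 1.98 ± 0.37 (limma, adjusted p = 0.0015). Without library 1 the difference was 1.79 (limma, adjusted p = 0.11). Trpv4 lay between -3.57 and 0.65 (median 0.03) in normal microglia, against 0.58 to 2.12 in tumour microglia, and rose by 1.90 ± 0.47. Its difference was 1.55, 1.29, 1.90 and 1.62 without libraries 1, 2, 18 and 27, none of them called. Trpm7 lay between -3.85 and 0.92 (median -0.42) in normal and between -0.46 and 3.85 (median 1.01) in tumour microglia, with wide overlap, and rose by 2.29 ± 0.73 (limma, adjusted p = 0.035). It was 1.08 without library 26 and 3.46 without library 1, and 10 single libraries ended its call. These 3 genes were called higher with both other centrings, which added Trpm2 (1.40 ± 0.38 with the olfactory centring, limma adjusted p = 0.016) and Kcnj2 (1.51, limma adjusted p = 0.012).

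Among the genes that fell, Clcn2, a chloride channel of the plasma membrane, had the largest difference, -2.13 ± 0.48. Its scores lay between -1.15 and 2.20 (median 0.35) in normal and between -2.05 and -0.65 (median -1.40) in tumour microglia. It was -1.45 without library 10 and -2.41 and -1.87 without libraries 1 and 26, uncalled each time. Kcnh5, a Kv channel of the ether-a-go-go kind, fell by 1.93 ± 0.36, Scn7a by 1.79 ± 0.31 and Trpm3 by 1.57 ± 0.29, each losing its call without library 1 (-1.48, -1.61 and -1.36). Cacna1d was the gene that fell without overlap: its scores were between 0.78 and 2.10 (median 1.43) in normal and between -0.89 and 0.66 (median 0.19) in tumour microglia. It fell by 1.37 ± 0.42 (limma, adjusted p = 0.029). The difference was -0.56 without library 1, 6 single libraries ended the call, and with the median of all genes subtracted it was -1.12 (limma, adjusted p = 0.074). Kcnn4 differed by -1.09 ± 0.41 (limma, adjusted p = 0.068) and was not called.

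The fitted comparison of tumour with normal microglia depended on the recipient for 15 channel genes, against 5.03% of all genes, by limma's test of the difference between recipients. That test was run only on the deposited values with all libraries, not with other centrings or with libraries left out. Normal microglia libraries 10, 18 and 26, all of Pep3 mice, kept only 8.6%, 23.9% and 22.8% of their direction. In all 15 the fitted difference was more positive in WT recipients. Directions were not counted over all genes, here or in the macrophage comparisons below, so such a lean is not shown to be particular to channel genes. They included the sodium channel genes Scn1a, Scn2a1, Scn7a, Scn9a and Scn10a. For Scn7a the fitted difference was 5.37 higher in WT than in Pep3 recipients, whereas the deposited scores differed by -0.62 in WT and -2.16 in Pep3 recipients, which is the same sign in both strains. For differentiated macrophages against tumour microglia 6 channel genes depended on the recipient (background 0.449%), all more positive in Pep3 recipients, and for undifferentiated macrophages 0 (background 0.00569%). Scn7a, Kcnc2, Kcnv1, Scn1a and Trpm3 were among these 6. Recipient strain also sets the graft donor and the experiment, so these cannot be told apart. Within each strain, macrophages and tumour microglia come from different experiments, and the labels swap these experiments between the strains. For Kcnn4 the mean difference of the deposited scores from tumour microglia was 4.42 in WT and 4.10 in Pep3 recipients for differentiated macrophages, and 3.43 and 3.34 for undifferentiated macrophages. For Kcnk6 it was -1.86 and -1.05, and -1.36 and -1.05. For Trpv4 it was -1.84 and -1.38, and -2.32 and -1.21. Tested within 1 strain alone, with 3 residual degrees of freedom, no channel gene was called, and the share over all genes was not taken for these fits.

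Other genes of ion transport were listed beside the channel stems. Of 37 measured, 10 rose and 2 fell in each macrophage comparison, which is 27% higher beside a background of 37% and 36.7% and 5.41% lower beside 6.35% and 5.19%. Their medians were 0.09 in differentiated and 0.41 in undifferentiated macrophages, below the medians of all genes. In tumour against normal microglia 0 rose and 4 fell, which is 10.8% lower beside a background of 12%. The genes that rose in both macrophage populations included the ryanodine receptors Ryr1, Ryr2 and Ryr3, intracellular calcium release channels known from muscle and neurons, the sodium leak channel Nalcn, the sodium pump subunit Atp1b1, the pannexin Panx1 and the lysosomal channel Mcoln2. Under the olfactory centring 2 were higher and 23 lower in differentiated macrophages (5.41% and 62.2%, background 3.59% and 40.3%). In undifferentiated macrophages 1 was higher and 18 lower with this centring (2.7% and 48.6%, background 2.69% and 37.5%). Ryr3 was then called higher in both and Ryr2 in differentiated macrophages, and Ryr1, Nalcn, Atp1b1, Panx1 and Mcoln2 were called in neither. With the median of all genes subtracted the counts were 6 and 11 (16.2% and 29.7%, background 19.8% and 19.2%), and 5 and 10 (13.5% and 27%, background 16.7% and 16.3%). Those that fell in both were Hvcn1, the voltage-gated proton channel that accompanies the oxidative burst (-1.28 ± 0.39 and -1.53 ± 0.40), and Itpr2, an inositol trisphosphate receptor (-1.06 ± 0.36 and -1.21 ± 0.37). Of the genes of store-operated calcium entry and purinergic signalling, Stim1, Stim2, Orai1, Orai2, P2rx4 and P2rx7 were not called in either macrophage comparison. Orai3, a pore subunit of store-operated entry, rose in undifferentiated macrophages (1.198 ± 0.39, limma adjusted p = 0.016) and differed by -0.30 ± 0.37 in differentiated macrophages. After the olfactory centring Stim1, Stim2, Orai1, Orai2 and P2rx4 were called lower in both comparisons, P2rx7 and Orai3 were called lower in differentiated macrophages, and the call of Orai3 in undifferentiated macrophages was lost.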

How the data were processed

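The deposited table holds signed scores, centred per gene and per recipient strain, for 17586 genes and 32 libraries. The kit was SMART-Seq v4 for low input, per the labels. FastQC, STAR 2.5.0a, RSEM 1.3.0 and mm9 are named in the submitters' processing notes; the step from reads to scores is not given in the sources used here. These values are not counts, so no count test was run, and depth per library is unknown. Differences between populations were fitted with limma 3.58.1 (R 4.3.3), every gene and library entering: population by recipient means plus 11 terms for the combinations without variation, 15 residual degrees of freedom, robust moderated variance, two-sided, with Benjamini-Hochberg adjustment over all genes at 0.05. Named genes were, per comparison, up to 20 called channel genes of largest absolute difference and 34 listed genes known from microglia and macrophages (31 measured). Values of some channel genes outside this rule are also given, with the results known, for example Clcn2, Cacna1s and Trpm3 in the macrophage comparisons. Results for some genes are not reported here. Members, lists and tests were chosen with earlier results of these data known. Alternatives were 2 other centrings, library weights, no terms for the combinations, only the groups compared, each recipient alone, a minimum difference of 1 and leaving out libraries.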

Additional observations from a re-analysis of the deposited data

Results flagged for a closer look

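In 22 of 228 groups of 8 libraries tested among the named channel genes, 1 library lay apart from the rest by more than the 95% critical value of the gap test. Chance gives about 1 in 20. Among normal microglia, the score that stood apart was that of library 2 for Cacna1a (-0.949), Kcnk6 (-0.433) and Trpv4 (-3.57); and of library 9 for Kcnj15 (-2.05). There too, the score that stood apart was that of library 17 for Kcnj6 (-1.61) and Trpc6 (-1.21); and of library 25 for Cacna2d1 (-1.37), Kcna1 (-2.83) and Trpm3 (-1.64). Among tumour microglia, the score that stood apart was that of library 6 for Kcnj2 (1.88); and of library 19 for Kcnma1 (0.995). Among differentiated macrophages, the score that stood apart was that of library 4 for Kcna4 (-0.417); and of library 12 for Kcnk6 (-2.17). There too, the score that stood apart was that of library 15 for Clcn4-2 (1.28). Among undifferentiated macrophages, the score that stood apart was that of library 8 for Cacna1e (1.93); and of library 16 for Cacna2d1 (-0.553), Kcnc2 (-0.486), Kcnh5 (-0.844) and Scn2a1 (-0.938). There too, the score that stood apart was that of library 21 for Cacna1s (-2.30) and Trpm7 (-2.94); and of library 32 for Clcn4-2 (-1.09). Of the libraries that stood apart, 8 of undifferentiated macrophages kept under 50% of its direction.

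The difference between tumour and normal microglia was tested for a dependence on the recipient, and 7 named genes passed limma's test of WT minus Pep3 recipients: Scn7a (5.37), Kcnc2 (4.98), Scn1a (4.61), Trpm3 (4.29), Scn2a1 (3.92), Cacna2d1 (3.63) and Scn9a (3.55). For differentiated macrophages minus tumour microglia 3 of the genes that the rule named for it passed: Scn7a (-4.74), Kcnc2 (-4.67) and Kcnv1 (-4.19). Scn1a and Trpm3, which the rule did not name there, passed as well. In the deposited scores the mean difference between tumour and normal microglia was negative in both recipients for all 7, for example -0.47 in WT and -1.94 in Pep3 recipients for Kcnc2, and that between differentiated macrophages and tumour microglia was positive in both for the 3, for example 1.74 and 3.00 for Kcnv1. The fitted dependence was larger than the gap between these means.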

How the results depend on the processing

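A named gene that was not called was counted as unchanged while it stayed uncalled. No paired analysis was run. The library numbers of the labels run from 1 to 32 and none occurs in more than 1 population, and the labels name no set or day shared by libraries. Any such sets were therefore not modelled.

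Counts of channel genes called were, for differentiated macrophages against tumour microglia, 101 higher and 6 lower, for undifferentiated macrophages 95 and 5, and for tumour against normal microglia 3 and 33. With library medians subtracted, 14 were lower in differentiated, 54 higher and 11 lower in undifferentiated macrophages, and 5 higher and 21 lower in tumour against normal microglia. With olfactory receptor medians subtracted, chosen after seeing the data, the counts were 14 and 18, 13 and 19, and 9 and 8. With library weights 8 fell in tumour against normal microglia. With only the groups compared, which leaves 3 residual degrees of freedom, the counts were 1 and 0, 0 and 0, and 1 and 2. With WT or Pep3 recipients alone (3 degrees of freedom) or without all 9 libraries that kept under 50% (6 degrees of freedom), every count was 0. A minimum difference of 1, and dropping the terms for combinations without variation, kept each count within 1.5 times. Between the macrophage populations no channel gene was called in any setting run. Shares over all genes were taken only for the deposited values and the 2 other centrings. Counts in the remaining settings, and without single libraries below, therefore cannot be set against a background and may not be particular to channel genes.

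Leaving out each library in turn, the counts were 74 to 103 higher and 2 to 7 lower for differentiated macrophages (lowest without tumour microglia library 27, and without differentiated library 28 or undifferentiated library 8), and 60 to 96 higher and 1 to 6 lower for undifferentiated macrophages (both lowest without differentiated library 31). For tumour against normal microglia they were 1 to 4 higher and 1 to 47 lower (lowest without normal library 1, and for the higher genes also without 2 or 18), and for the macrophage populations 0 to 0. Calls that held without every single library numbered 63 of 107, 56 of 100 and 0 of 36.

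Among named genes called as deposited or in the alternative, directions turned in these cases, none called in the alternative unless stated, and the cause was not tested. Turned directions of genes called in neither are left out. With WT recipients alone, tumour minus normal microglia was 0.77 for Scn7a, 1.06 for Scn1a, 0.15 for Trpm3, 0.47 for Kcnc2, 0.33 for Scn2a1, 0.89 for Trpv5 and 1.11 for Scn9a; Trpm7 was 1.48 in differentiated, and Kcnk3 -2.44 and Kcna1 -2.10 in undifferentiated macrophages. With Pep3 recipients alone, tumour minus normal microglia was -0.15 for Trpm7 and 0.53 for Cacna2d4. With olfactory medians subtracted, Clcn5 was -0.063, and Clcn7 -1.41 and Trpv2 -1.38 (both called), in differentiated macrophages, and Kcna3 -0.0024, Cacna2d4 -0.29, Clcn7 -1.46 (called) and Trpc6 -0.21 in undifferentiated macrophages. Without the 9 libraries Trpv4 was 0.041 in differentiated macrophages. Depth is unknown, so no limit of detection can be given, and a score near 0 says nothing of a gene's abundance.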
